A study of Arabidopsis thaliana with 12 samples.

Results

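The comparison described here is the response of dark-held Arabidopsis thaliana rosettes to a light pulse given at night, taken from the 3 night pulse arrays and the 3 night control arrays among the 12 arrays of the series. The groups were chosen by the sample titles. The night pulse plants were wild-type seedlings of the Columbia ecotype, 15 days old, raised in white light for 12 h of each day with 12 h of darkness between, moved to continuous darkness and given white light for 1 h. The night control plants had the same genotype, age and growth history and received no light. Aerial rosettes were collected, and their total RNA was hybridized to Affymetrix ATH1 arrays. The labels pair the night samples with CT 6 and those of the subjective day with CT 18, which conflicts with the titles if CT counts from subjective dawn, and the titles were followed. The labels do not say that the arrays came from separate plants, so each p-value reflects array-to-array spread, which may be technical. All 22746 probe sets that are not array controls were described, of 22810 in the table, and 13647 were bright enough to be tested.

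Plants read light through phytochromes, cryptochromes and other photoreceptors, which act on the stability and activity of transcription factors such as HY5 and its relative HYH. A seedling kept in darkness runs short of sugar, and the kinase SnRK1 then favours the breakdown of proteins, lipids and organelles over growth. Light given to such a plant can therefore reach gene expression through photoreceptors, the clock and photosynthesis, and bulk RNA of a whole rosette reads the sum of these over all cell types.

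Signals are given after normalization across the 12 arrays, in arbitrary units that can be compared between arrays for 1 probe set but not between probe sets. The values of the 3 arrays of a group are given in the order of their replicate numbers. Changes are fitted log2 differences, night pulse minus night control, with their standard errors (SE, n = 3 arrays per group). A probe set was called where its Benjamini-Hochberg adjusted p from limma was under 0.05, and "rose" and "fell" are used of called probe sets. Where a group mean lay under 21.75, the lowest mean signal kept in the tests, both means were raised to that signal where lower, and the resulting fold is a lower bound, written "at least".

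Before normalization the median signal was 41.2 to 63.5 on the night pulse arrays, against 47.7 to 50.5 on the night control arrays. As a sign of RNA quality, the GAPDH control probe sets gave a 3' over 5' signal ratio of 2.16 to 5.16 on the night pulse arrays and 2.32 to 3.44 on the night control arrays, and the highest value belonged to night pulse replicate 1. The ratio for actin was 25.7 to 37.1 on the night pulse arrays, against 18.0 to 23.3 on the night control arrays, so that the groups did not overlap in it, and its part in the results was not tested. Of 10 rosette leaf markers, 1 had a probe set with a single named gene. This was RCA, rubisco activase, at 7180, 7820 and 8680 on the night pulse arrays and 8410, 7480 and 7250 on the night control arrays. Of 5 root markers 2 had one. PYK10, a root beta-glucosidase that seedling shoots can also contain, had 1300, 1830 and 1380 on the night pulse arrays, against 1920, 1060 and 1530 on the night control arrays, and EXPA7, a root hair expansin, stayed at or under 7.95 on all 6. None of the flower or seed markers had such a probe set. In bulk tissue, fewer cells of a type and less RNA per cell cannot be told apart.

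The night pulse changed 1760 of the 13647 probe sets tested, or 12.9%. Of these 829 rose (6.07%) and 931 fell (6.82%). Without normalization between arrays the fit called 669 probe sets, of which 63.7% were higher, against 47.1% higher in the fit reported here, so the balance of rises and falls rests on the normalization. Without night control replicate 2 the fit called 1103. The night arrays did not overlap in 1756 of the 1760 called probe sets, so non-overlap of a called gene adds almost nothing to its call. Non-overlap was common in general, at 37.1% of all probe sets tested. Rises of 8-fold or more on the fitted scale numbered 47 and falls of that size 25, and the median change was 1.22 log2 among the rises and -1.10 among the falls. Taking 1 probe set per named gene, 7279 genes were tested and 11.3% were called, with 4.90% higher and 6.40% lower. Of 181 genes picked by a fixed rule, 94 kept their calls under all 15 alternatives, and 76 lost theirs without normalization. The counts for gene groups below stand beside these shares and the median change of all tested genes, which was -0.016. The members, and several of the lists, were chosen with results of these data known. A share above 11.3% therefore describes a list and is not a test of it.

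**Figure D1:**
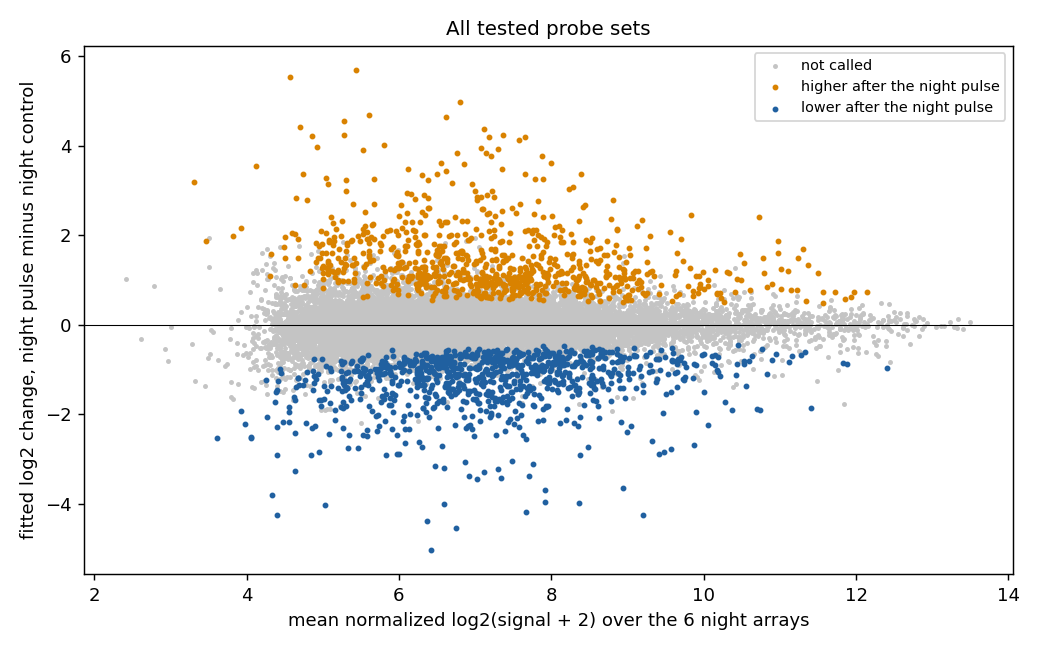
Fitted log2 change, night pulse minus night control, of every tested probe set against its mean normalized log2(signal + 2) over the 6 night arrays. Orange points are the 829 probe sets that rose, blue points the 931 that fell and grey points those not called.

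Among the largest single changes, AT2G27420, a papain-type cysteine protease, had 284, 327 and 317 on the night pulse arrays, against 15.2, 0.971 and 2.27 on the night control arrays, at least 14.2-fold higher (adjusted p = 1.9e-05). AT1G20070, a gene without a known role, had 626, 453 and 884 after the pulse, against 30.5, 16.2 and 45.3 in the controls, 21.3-fold higher. In both genes the lowest pulsed array lay far above the highest control. Among the falls, AT5G61590, an ERF-type transcription factor, had 45.0, 51.9 and 40.2 after the pulse, against 921, 977 and 716 in the controls, 19.1-fold lower, and AT3G15450, a gene known to rise in darkness and sugar starvation, was 18.3-fold lower. AT2G20670, of the DUF506 family, was at least 17.3-fold lower, and AT5G19120, of the aspartyl protease family, was 15.7-fold lower. None of these 6 genes lost its call under any of the 15 other ways of processing that were tried for the night pulse.

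Genes of light signalling responded strongly. Of 6 tested, 4 rose and 1 fell, with a median change of 2.17. The 2 largest rises belonged to the BIC genes, which encode small proteins that block the pairing of activated cryptochromes and so damp blue-light signalling. AT3G44450 (BIC2) had 600, 433 and 612 on the night pulse arrays, against 41.5, 36.0 and 36.8 on the night control arrays, a change of 3.76 ± 0.50 (adjusted p = 0.000242). AT3G52740 (BIC1) had 218, 127 and 245 after the pulse, against 19.4, 24.4 and 25.3 in the controls, a change of 2.94 ± 0.34 (adjusted p = 6.85e-05). AFR, an F-box protein that promotes phytochrome A signalling, had 407, 348 and 267 after the pulse, against 51.3, 51.4 and 60.3 in the controls, 6.27-fold higher. The rises of AFR and the BIC genes thus covered a positive and 2 negative elements of photoreceptor signalling. HYH, the relative of HY5 named above, had 364, 364 and 422 after the pulse and 98.4, 115 and 124 in the controls, 3.41-fold higher. LIP1, a small GTPase that acts on light input to the clock, went the other way with 56.8, 58.3 and 65.1 after the pulse, against 98.1, 118 and 78.7 in the controls, a change of -0.68 ± 0.19 that lost its call in 7 of the 15 alternatives. The arrays of the 2 groups did not overlap in any of these 5 genes.

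Of 11 clock and day-length genes tested, 1 rose, 4 fell and 6 were not called, with a median of -0.30 that became -0.148 with median centring. LIP1, described above, is 1 of the 4 falls, and CCL, at -0.89, is another. The rise was GI, which links the clock to flowering, at 220, 128 and 166 after the pulse, against 19.4, 2.35 and 5.63 in the controls, at least 7.87-fold higher. COR27, a cold- and clock-controlled repressor of evening clock genes, had 21.7, 22.1 and 32.7 after the pulse, against 158, 174 and 169 in the controls, 6.54-fold lower. MYBC1, a GARP-family factor close to the clock protein LUX, had 20.0, 28.0 and 23.2 after the pulse, against 56.7, 59.6 and 50.2 in the controls, 2.34-fold lower. Neither gene overlapped between the groups, and both kept their calls in all 15 alternatives. The 2 AP2-type flowering repressors with a tested probe set both rose. SNZ had 88.8, 102 and 101 after the pulse, against 11.1, 7.68 and 9.23 in the controls, at least 4.47-fold higher (adjusted p = 0.00268). SMZ had 156, 183 and 136 after the pulse, against 40.4, 25.3 and 27.5 in the controls, 5.10-fold higher (adjusted p = 1.74e-05). Both are known to repress the florigen gene FT.

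Flavonoid genes, whose products absorb ultraviolet light, rose in 5 of 7 cases, with a median change of 2.05, and all 6 called members kept their calls in all 15 alternatives. CHIL, a chalcone isomerase-like protein that helps the first enzymes of the pathway, had 389, 382 and 462 after the pulse, against 61.9, 49.7 and 53.0 in the controls, 7.48-fold higher. AT1G06000 (UGT89C1), a flavonol rhamnosyltransferase, had 974, 908 and 826 after the pulse, against 129, 74.2 and 123 in the controls, 8.30-fold higher. UGT84A3, which attaches glucose to hydroxycinnamates such as sinapate, had 261, 147 and 333 after the pulse, against 44.5, 55.2 and 70.5 in the controls, 4.35-fold higher. The other 2 rises were the flavonol sugar transferases UGT78D2, at 2.43 ± 0.37, and UGT78D1, at 2.05 ± 0.23. The fall was AT1G23390, a Kelch-repeat F-box protein that marks chalcone synthase for destruction, with 47.1, 93.5 and 63.0 after the pulse, against 723, 930 and 948 in the controls, 12.8-fold lower. Thus 5 members that build or decorate phenolics rose while the member that removes the entry enzyme fell.

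**Figure D2:**
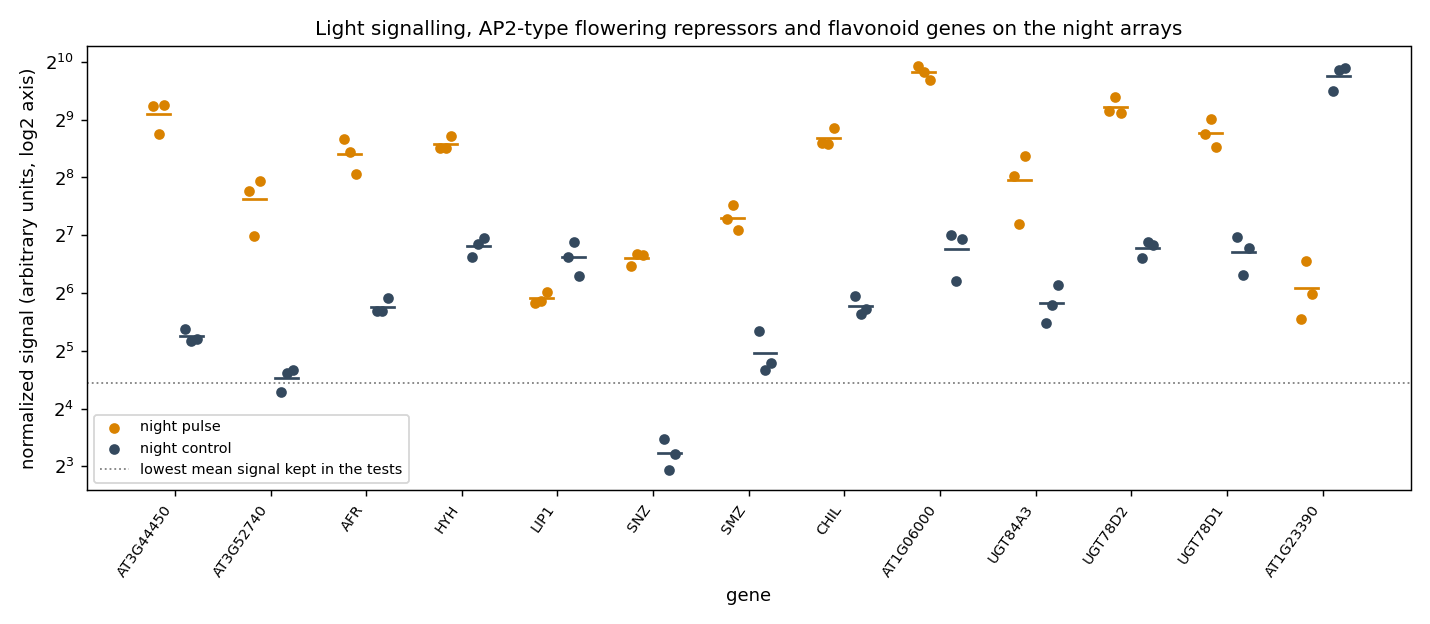
Normalized signal on a log2 axis of light signalling genes, the AP2-type flowering repressors SNZ and SMZ and flavonoid genes, with 3 points and a mean bar per group, night pulse (orange) left of night control (blue). Every gene is separated between the groups, with LIP1 and AT1G23390 lower after the pulse and the others higher, and the dotted line marks the lowest mean signal kept in the tests.

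Heat shock proteins and their co-chaperones mostly rose, in a list whose members were chosen with results of these data known. Of 17 tested, 12 rose and 2 fell, so that 82.4% were called, and the median change was 1.09. Without normalization 10 of the 17 were called. Hsp70 proteins fold and refold clients in cycles of ATP use. AT3G09440, a cytosolic Hsp70, had 2130, 2690 and 1690 after the pulse, against 437, 299 and 450 in the controls, a change of 2.45 ± 0.22 (adjusted p = 9.9e-06), and the cytosolic Hsp70-2 was 2.79-fold higher. AT1G54050, a small heat shock protein of the cytosolic class III, had 271, 379 and 152 after the pulse, against 20.3, 18.6 and 30.7 in the controls, 11.5-fold higher. AT5G48570, the heat-inducible peptidyl-prolyl isomerase FKBP65, had 60.9, 110 and 46.1 after the pulse, against 13.0, 14.9 and 21.0 in the controls, at least 3.33-fold higher. In each of these genes the lowest pulsed array exceeded the highest control.

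The rises reached proteins that serve Hsp70 and Hsp90. Fes1A, which protects cytosolic Hsp70 from degradation, had 252, 242 and 221 after the pulse, against 56.2, 44.2 and 90.1 in the controls, 3.75-fold higher. Its paralogs moved the other way. Fes1B had 51.2, 31.2 and 35.0 after the pulse, against 94.9, 85.6 and 77.7 in the controls, 2.20-fold lower, and Fes1C had 69.8, 60.4 and 44.5, against 117, 111 and 99.0, 1.87-fold lower. SGT1A, an Hsp90 co-chaperone known from plant immunity, was 2.84-fold higher, and AT3G12050, which carries an Aha1 domain of the kind that stimulates Hsp90, was 2.22-fold higher. Hop3 and Hop2, which bridge Hsp70 and Hsp90, were at least 1.95-fold and 1.77-fold higher, and BOB1, a small heat shock-type protein of development, was 1.62-fold higher. Of the plastid chaperonin subunits, Cpn60beta2 had 1590, 1470 and 1250 after the pulse, against 801, 537 and 700 in the controls, 2.12-fold higher, and Cpn60beta3 was 2.05-fold higher. The third plastid subunit tested, Cpn60beta4, at 0.47, was not called, and neither were Hop1, at 0.35, and HSA32, a heat-induced protein, at 0.11. Of the 14 called members, 9 kept their calls in all 15 alternatives. Hop3, Cpn60beta3, BOB1, Hop2 and Fes1C lost theirs in 8, 7, 6, 3 and 1 of them.

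**Figure D3:**
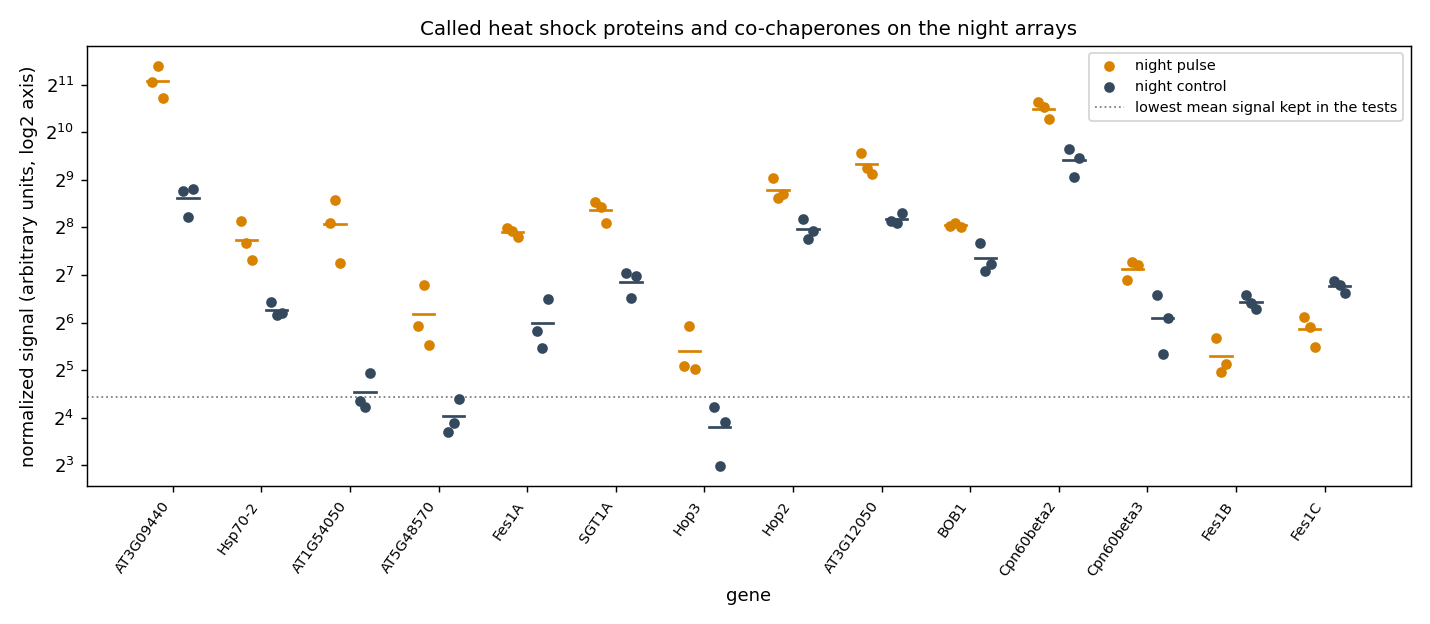
Normalized signal on a log2 axis of the 14 called heat shock proteins and co-chaperones, with 3 points and a mean bar per group, night pulse (orange) left of night control (blue). Fes1B and Fes1C are the 2 genes with the pulsed arrays below the controls.

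DnaJ proteins, which bring clients to Hsp70, were called less uniformly, with 3 rises and 2 falls among 26 tested and a median of 0.215. AT3G14200 had 264, 266 and 209 after the pulse, against 20.9, 2.53 and 6.63 in the controls, at least 11.3-fold higher, and AT2G20560 had 151, 114 and 95.1, against 4.72, 6.57 and 1.11, at least 5.51-fold higher. AT4G28480 was 1.76-fold higher. The falls were AT5G05750, at 48.5, 43.2 and 58.8 after the pulse, against 118, 177 and 172 in the controls, 3.11-fold lower, and AT3G11450, a ZRF1-type J-protein that reads ubiquitinated histone, at 147, 168 and 180, against 329, 397 and 397, 2.27-fold lower. The changes in this family were thus few and of opposite signs, and 21 of its genes were not called.

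Of 8 genes that regulate the response to iron deficiency, 3 rose and 1 fell, and all 4 kept their calls in all 15 alternatives. AT1G47400, an IRON MAN peptide gene whose products switch on iron uptake, had 166, 105 and 492 after the pulse, against 21.8, 21.3 and 70.3 in the controls, 6.74-fold higher. PYE, a bHLH factor of the iron deficiency response, had 221, 149 and 305 after the pulse, against 48.0, 41.0 and 71.8 in the controls, 4.20-fold higher. bHLH34, which activates such genes, had 271, 172 and 263, against 58.6, 54.7 and 70.0, 3.85-fold higher. In the first 2 genes replicate 3 was the highest array of each group, and no group overlapped with the other. bHLH121 (URI), a partner of bHLH34 and its close relatives, had 76.1, 102 and 92.3 after the pulse, against 388, 418 and 347 in the controls, 4.26-fold lower (adjusted p = 3.93e-05). The other bHLH factors of the same subgroup, ILR3, bHLH104 and bHLH115, had changes of 0.20, 0.26 and 0.29 and were not called.

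Glucosinolates are sulphur-rich defence compounds of the cabbage order. Of 8 genes of their synthesis, transport and regulation, 6 rose and none fell, with a median of 1.33. BCAT4, which starts the chain elongation of methionine, had 580, 789 and 709 after the pulse, against 208, 154 and 212 in the controls, 3.63-fold higher. AOP1, of the family of side-chain modifying oxygenases, had 115, 113 and 127, against 61.3, 46.7 and 28.1, 2.61-fold higher. UGT74B1 and AT2G31790 (UGT74C1), which glucosylate the thiohydroximate intermediate, were 2.76-fold and 1.94-fold higher. The transporter GTR1 had 242, 280 and 218 after the pulse, against 99.2, 115 and 89.0 in the controls, 2.43-fold higher, while its paralog GTR2 changed by 0.14 and was not called. The transcription factor MYC4 was 3.04-fold higher, and its relative MYC3, at -0.31, was not called. Only BCAT4 and AOP1 kept their calls in all 15 alternatives, and the count of called members ranged from 2 to 6 over them.

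GTR1 belongs to the NPF transporters, which carry nitrate, peptides, hormones or glucosinolates. Of 7 NPF genes tested, 5 rose and none fell, with a median of 1.24. AT3G21670 (NPF6.4), a nitrate transporter, had 771, 978 and 891 after the pulse, against 86.1, 173 and 170 in the controls, 6.16-fold higher (adjusted p = 8.47e-05). AT1G59740 (NPF4.3) had 142, 121 and 172, against 72.9, 30.2 and 40.8, 3.02-fold higher. AT1G68570 (NPF3.1) and AT2G26690 (NPF6.2) were 2.38-fold and 1.80-fold higher, so that the rises ran across several subfamilies.

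Starvation-linked genes showed rises and falls within single pathways. Among 17 genes around SnRK1, 3 rose and 2 fell, with a median of 0.235. AKINBETA1, the beta subunit that positions and tunes the kinase, had 79.6, 64.4 and 71.8 after the pulse, against 718, 609 and 586 in the controls, a change of -3.11 ± 0.23 (adjusted p = 2e-06). BZIP53, a factor that acts with the kinase on amino acid breakdown genes, was 1.58-fold lower. The 3 rises were FCS-like zinc finger proteins, a plant family that binds SnRK1. AT2G44670 had 722, 755 and 762 after the pulse, against 308, 432 and 358 in the controls, 2.04-fold higher, AT5G47060 had 116, 120 and 121, against 49.3, 54.5 and 59.2, 2.19-fold higher, and AT3G22550 was at least 3.13-fold higher. The other 7 FCS-like zinc finger genes tested, from AT1G74940 at -0.60 to AT1G22160 at 0.69, were not called, and neither were the beta-type subunit genes AT4G16360, at 0.24, and AT2G28060, at 0.07. AKINBETA1 and AT2G44670 were called in all 15 alternatives, while BZIP53, AT3G22550 and AT5G47060 lost their calls in 4, 3 and 1 of them.

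Autophagy genes had no rise and 3 falls among 11 tested, all 3 in the ATG8 family, whose proteins coat the growing autophagosome. ATG8E had 37.3, 50.5 and 64.5 after the pulse, against 449, 482 and 516 in the controls, 9.50-fold lower. ATG8F had 319, 369 and 430, against 1010, 1010 and 811, 2.53-fold lower, and ATG8C was 1.52-fold lower. The other ATG8 genes tested were not called. They were ATG8B at 0.32, ATG8D at 0.16, APG8A at 0.03, ATG8G at -0.32, ATG8H at -0.33 and APG8H (AT3G15580) at -0.33. The calls thus covered only part of the family, and whether its members differed in response was not tested. ATG8C lost its call in 6 of the 15 alternatives.

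Lipid breakdown genes had 1 rise and 3 falls among 10 tested. SDP1, the main lipase of stored oil, had 57.0, 54.3 and 34.6 after the pulse, against 97.8, 108 and 146 in the controls, 2.41-fold lower. The lipases AT5G18630 and AT1G02660 were 2.83-fold and 2.52-fold lower. The rise was AT1G67360, a lipid droplet protein, with 738, 1150 and 841 after the pulse, against 74.3, 72.6 and 67.2 in the controls, 12.7-fold higher. The lipases AT5G18640, at -0.95, and AT3G14360, at 0.24, were not called, nor were the droplet proteins AT3G05500, at 0.31, and AT2G47780, at 1.03. SDP1 and AT1G02660 lost their calls without normalization. Of 11 genes of amino acid breakdown, MCCA, a subunit of a leucine breakdown enzyme, was 2.31-fold lower, MGL, methionine gamma-lyase, was 1.77-fold higher, and neither kept its call in all 15 alternatives. The 9 other genes of this list were not called, and its median was -0.16.

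**Figure D4:**
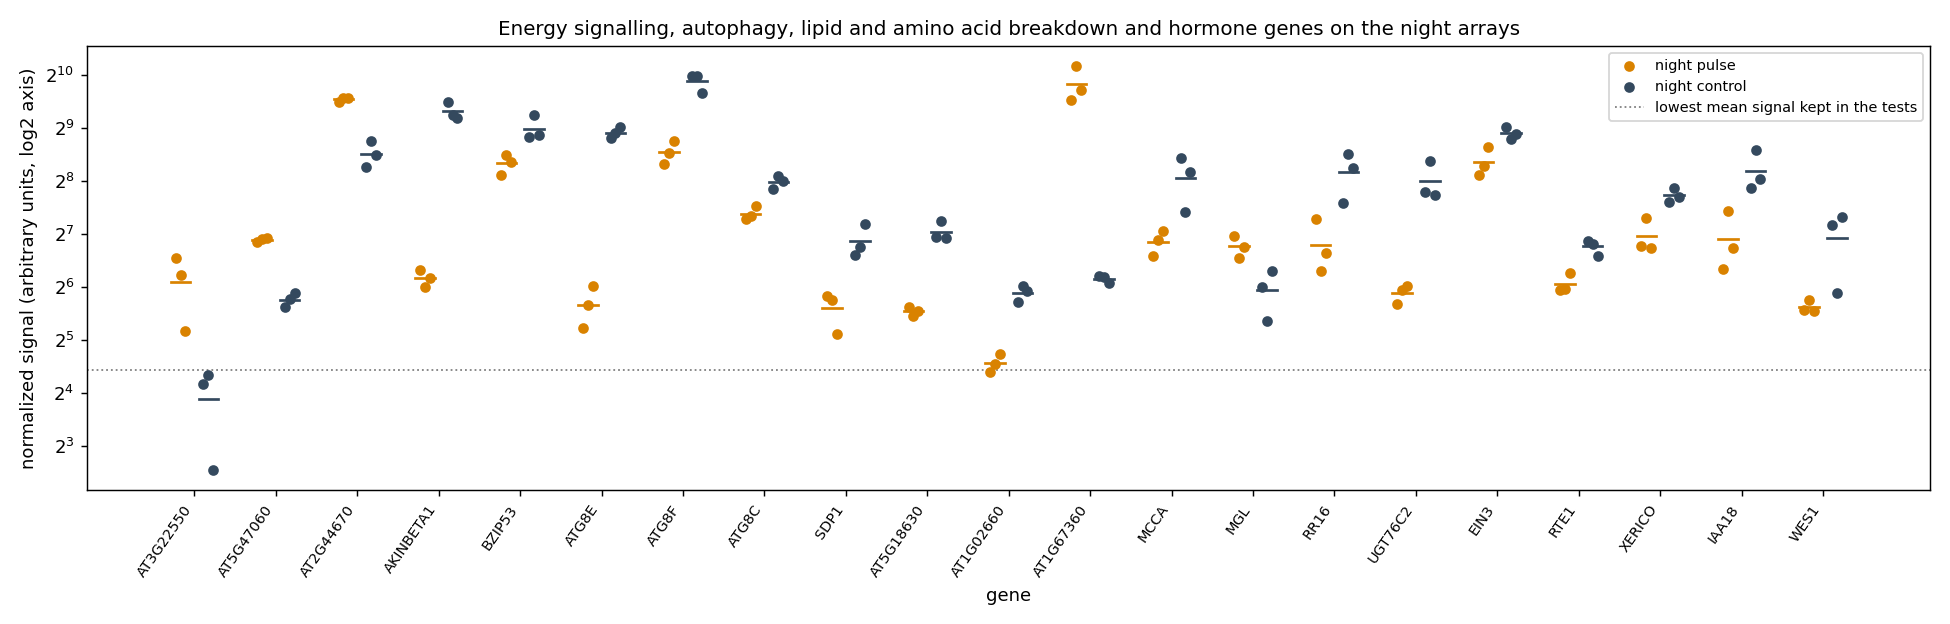
Normalized signal on a log2 axis of the called genes of energy signalling, autophagy, lipid and amino acid breakdown, and the cytokinin, ethylene and abscisic acid, and auxin lists, with 3 points and a mean bar per group, night pulse (orange) left of night control (blue). The FCS-like zinc finger genes AT3G22550, AT5G47060 and AT2G44670, the lipid droplet gene AT1G67360 and MGL are higher after the pulse and the other genes plotted are lower.

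The called genes of the cytokinin, ethylene and abscisic acid, and auxin lists all fell. In the cytokinin list both called members of 3 tested were lower. UGT76C2, which inactivates cytokinins by N-glucosylation, had 51.5, 61.7 and 65.2 after the pulse, against 221, 331 and 213 in the controls, 4.29-fold lower (adjusted p = 0.000135). RR16, a type-A response regulator that dampens cytokinin signalling, had 156, 78.9 and 99.4, against 192, 366 and 304, 2.58-fold lower. Neither gene overlapped between the groups. Of 6 ethylene and abscisic acid genes, EIN3, the central ethylene transcription factor, had 277, 310 and 399 after the pulse, against 519, 442 and 474 in the controls, 1.45-fold lower. RTE1, which acts on the ethylene receptor ETR1, was 1.63-fold lower and XERICO, a RING protein that raises abscisic acid, was 1.71-fold lower, and these 3 lost their calls in 9, 5 and 5 of the 15 alternatives. Of 7 auxin genes, the repressor IAA18 was 2.42-fold lower and WES1 (GH3.5), which conjugates auxin to amino acids, was 2.46-fold lower. WES1 rested on 47.5, 54.2 and 46.6 after the pulse, against 144, 59.4 and 160 in the controls, and lost its call in 8 of the alternatives. By limma no gene of 7 in the gibberellin list was called, although 2 of them had an unadjusted p under 0.05.

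Among transcription factor families, GARP factors had 4 falls and 1 rise among 14 tested and a median of -0.475. AT1G25550 (HHO3), a nitrate-induced repressor, had 146, 153 and 302 after the pulse, against 543, 614 and 513 in the controls, 2.78-fold lower. AT4G37180 (HHO5) was at least 1.56-fold lower, and AT3G24120 (PHL2), a phosphate starvation factor, had 124, 116 and 131, against 207, 200 and 205, 1.65-fold lower. MYBC1, described above, was the fall called in all 15 alternatives. The rise was MYR2, a flowering-time regulator, at 58.0, 62.4 and 54.1 after the pulse, against 23.8, 21.8 and 23.5 in the controls, 2.52-fold higher.

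Other families had members in both directions. The 14 MYB genes had 3 rises and 2 falls, the 25 bHLH genes 6 and 2, the 16 AP2 and ERF genes 4 and 3, and the 13 bZIP genes 1 and 3. AT5G08520, a MYB-related factor, had 75.7, 61.5 and 74.6 after the pulse, against 273, 282 and 265 in the controls, 3.87-fold lower. AT1G70000, another MYB-related factor, had 196, 181 and 186, against 54.9, 70.7 and 58.2, 3.06-fold higher, and TRY, a small MYB that limits leaf hair formation, was 3.86-fold higher. The 3 pulsed arrays of the first 2 genes differed from each other far less than from the controls. The 2 trihelix factors tested, GT-1 and GT2, which bind light-responsive promoter elements, were 2.16-fold and 2.15-fold lower. No WRKY gene of 6 tested passed limma's threshold, while 2 of them had an unadjusted p under 0.05.

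Cell wall genes gave some of the largest rises. Of 30 pectin genes, 4 rose and 4 fell, with a median of -0.022. AT1G48100, a polygalacturonase, had 262, 353 and 356 after the pulse, against 25.7, 26.7 and 31.5 in the controls, 11.6-fold higher. AT1G60590, a polygalacturonase-like protein, had 924, 935 and 724, against 81.0, 99.6 and 134, 8.21-fold higher, and AT1G23205, of the family of pectin methylesterase inhibitors, had 384, 415 and 287, against 51.5, 35.7 and 44.7, 8.24-fold higher. All 3 kept their calls in all 15 alternatives, whereas the 4 falls were 1.76-fold to 2.45-fold.

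Among 18 genes that loosen the wall, 5 rose and 2 fell, with a median of 0.413. XTH32, a xyloglucan-modifying enzyme, had 613, 768 and 642 after the pulse, against 193, 163 and 185 in the controls, 3.74-fold higher, and EXPB3, a beta-expansin, was 3.12-fold higher. EXPA16, an alpha-expansin, was 2.41-fold higher and lost its call in 10 of the 15 alternatives. EXLA1, an expansin-like protein, had 7.75, 22.0 and 19.6, against 92.6, 96.3 and 65.2, at least 3.89-fold lower, and EXGT-A3, a xyloglucan transferase, was 2.24-fold lower. Rises and falls thus stood side by side in this enzyme class. TBL26, of the wall acetylation family, rose 16.6-fold, while TBL25 and TBL45 fell and 12 others of the family were not called. The wall-sensing receptor kinases THE1 and FER both fell. THE1 had 121, 93.1 and 77.9 after the pulse, against 280, 408 and 263 in the controls, 3.26-fold lower, and FER was 1.82-fold lower and lost its call in 7 of the 15 alternatives.

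Of 19 GDSL esterases, 5 rose and 1 fell, led by AT3G48460 with 795, 493 and 522 after the pulse, against 114, 67.1 and 79.2 in the controls, 6.94-fold higher. AT5G45950 was 2.48-fold higher. Of 4 dirigent proteins, which guide the coupling of phenolic radicals, 3 rose, among them AT1G65870, at least 5.11-fold higher, and AT1G55210, 2.71-fold higher. Of 5 genes of phosphatidylcholine synthesis, 2 rose, both phosphoethanolamine methyltransferases. AT1G73600 had 564, 638 and 1080 after the pulse, against 122, 128 and 194 in the controls, 5.14-fold higher, and PMEAMT was 1.77-fold higher and lost its call in 5 of the alternatives.

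Redox genes had 6 rises and 4 falls among 43 tested, with a median of -0.017. Of the called glutaredoxins of the plant-specific CC type, 1 rose and 2 fell. AT4G33040 had 204, 140 and 171 after the pulse, against 40.8, 32.0 and 27.1 in the controls, 5.15-fold higher. AT3G62950 had 0.649, 19.8 and 7.20, against 139, 140 and 110, at least 5.96-fold lower. AT5G18600 was 1.64-fold lower and lost its call in 7 of the 15 alternatives. MSRB6, a methionine sulphoxide reductase, was 4.78-fold higher and GR1, glutathione reductase, was 2.21-fold higher. MSRB9, of the same enzyme family as MSRB6, had 7.11, 37.5 and 4.94 after the pulse, against 106, 60 and 39.7 in the controls. MSRB9 was thus at least 3.16-fold lower, and it lost its call in 6 of the 15 alternatives. Of 22 genes of mitochondrial electron transport, 2 rose, and CYTC-2, a cytochrome c gene, had 355, 463 and 581 after the pulse, against 117, 110 and 121 in the controls, 4.02-fold higher, while CYTC-1 changed by 0.20 and was not called.

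Of 20 cold and dehydration genes, 3 rose and 2 fell. COR15A and COR15B, neighbouring genes for plastid-protecting proteins, had the 2 largest rises. COR15A had 250, 401 and 842 after the pulse, against 63.1, 74.4 and 74.5 in the controls, 7.04-fold higher, and COR15B had 230, 288 and 600, against 28.6, 39.7 and 94.0, 6.89-fold higher. Replicate 3 was highest in each group for both genes, and the spread of the pulsed arrays was wide. COR27 was among the falls. Over the genome, 2188 pairs of neighbouring protein-coding genes had both members tested, and in 30 both were called. Of these, 9 pairs rose together, 13 fell together and 8 moved in opposite directions. Of single genes 11.3% were called, and whether neighbours were called together more often than other pairs was not tested. Of the 21 protein phosphatases 2C, 3 rose and 2 fell, and 2 of the rises, AT3G05640 and AT5G27930, encode the growth-restricting EGR phosphatases, 3.78-fold and 2.35-fold higher.

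Few photosynthesis genes were called. Of 31 nuclear genes of the light reactions, LHCB4.3, a minor antenna protein, was the 1 gene called, at 1080, 503 and 651 after the pulse, against 356, 373 and 318 in the controls, 2.14-fold higher, and it lost its call in 7 of the 15 alternatives. None of 6 Calvin cycle and photorespiration genes was called, and none had an unadjusted p under 0.05. Of 10 genes of chlorophyll synthesis 2 fell. PORB, the light-dependent protochlorophyllide reductase, had 1500, 1580 and 1300 after the pulse, against 3010, 2260 and 2300 in the controls, 1.73-fold lower, and CHLM, a methyltransferase before it, was 1.46-fold lower. Both lost their calls when the arrays were not normalized and when they were centred on their medians, and CHLM also without night pulse replicate 3 and without night control replicate 2 or 3.

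The 69 plastid-encoded genes tested had fitted changes from -1.93 to -0.04, all below 0, with a median of -0.689. Limma called 0 of them, and 2 had an unadjusted p under 0.05. Their summed signal was 155000, 184000 and 101000 on the night pulse arrays, against 162000, 210000 and 208000 on the night control arrays, so that the groups overlapped and night pulse replicate 3, which also had the highest actin ratio, was the lowest. Without normalization 63 of the 69 were below 0 and with median centring also 63. Array weights called 21 of them and leaving out night pulse replicate 2 called 3.

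**Figure D5:**
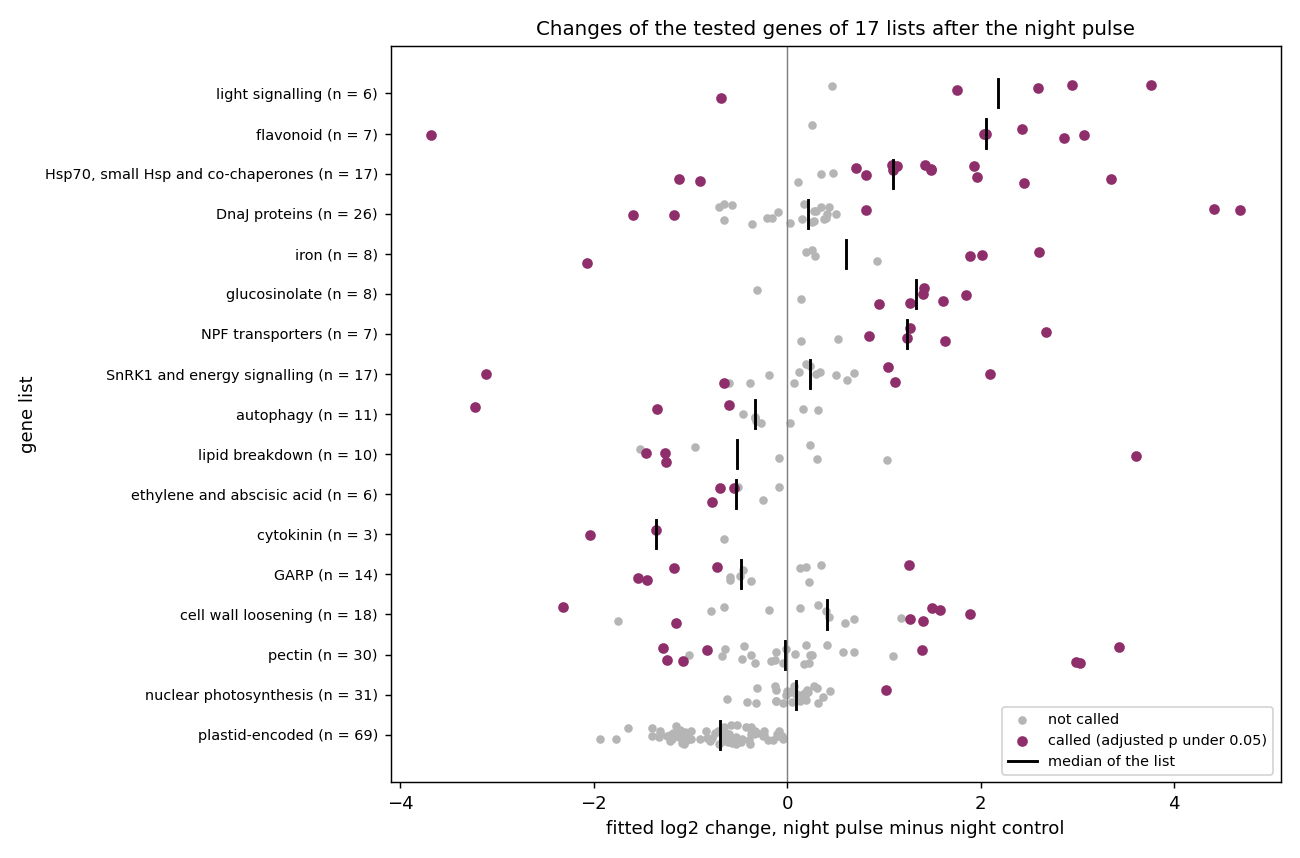
Fitted log2 change, night pulse minus night control, of each tested gene of 17 lists, with called genes in purple, others in grey and a black bar at the median of the list. Called genes lie mostly right of 0 in the light signalling, flavonoid, chaperone, glucosinolate and NPF lists, left of 0 in the autophagy, ethylene and abscisic acid, cytokinin and GARP lists, and on both sides in the lists of SnRK1, pectin and wall loosening genes.

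Among the 10 brightest called genes, changes ran from 1.46-fold for CHLM to 3.68-fold for CP5. AT2G45180, a lipid-transfer protein family gene, had 3640, 4440 and 3600 after the pulse, against 7380, 7970 and 7380 in the controls, 1.95-fold lower. CP5, which has a lipid-binding START domain, was 3.68-fold lower, and UBC28, a ubiquitin-conjugating enzyme, had 1260, 1250 and 1220, against 2800, 2640 and 2520, 2.13-fold lower. AT1G13930, a salt-response gene, had 3240, 3230 and 3110, against 1610, 1250 and 1220, 2.35-fold higher. MT1C, a metallothionein, had 1630, 2050 and 4440, against 832, 638 and 1030, 3.25-fold higher, with a wide spread among the pulsed arrays. AT1G09310, of the DUF538 family, was 1.61-fold higher and lost its call in 6 of the 15 alternatives. AT2G45180, CP5 and UBC28 lost their calls without normalization, and UBC28 also with median centring.

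The same hour of light given in the subjective day to plants of the same genotype, age and light-dark growth cycle, on 3 day pulse arrays and 3 day control arrays, served as the closest comparison. Clock phase and any difference in time already spent in darkness cannot be told apart between the night and day arrays. Over the tested probe sets, the day pulse arrays correlated with the 6 night arrays at 0.746 to 0.845 and the day control arrays at 0.574 to 0.770, and the part of this gap in the differences was not tested. The difference between the responses, night pulse minus its control less day pulse minus its control, was called for 1728 probe sets, or 12.7%. The count was 440 without normalization, 2729 with median centring, 1135 without night control replicate 3 and 2660 without day control replicate 1. In the autophagy list 7 of 11 genes differed, in light signalling 4 of 6 and in lipid breakdown 4 of 10, against 11.1% of all tested genes. UGT76C2 fell more at night, by -2.04 against -0.43 in the day, a difference of -1.61 ± 0.36 (adjusted p = 0.0107). RR16 was -1.36 at night and 0.12 in the day, a difference of -1.48 ± 0.45 (adjusted p = 0.0453). SKP2A, an F-box protein that turns over cell cycle regulators, was 1.18 at night and -1.67 in the day, a difference of 2.85 ± 0.34 (adjusted p = 0.000181). SKP2A thus changed sign, and both called cytokinin genes had a larger fitted fall at night. In the day controls UGT76C2 had a mean of 44.9 and RR16 of 31.3, against 255 and 287 in the night controls. These day levels left little room above 21.75 for a fall, and the part of this in the differences was not tested. The flavonoid list had 1 gene that differed of 7, the chaperone list 4 of 17 and the iron list 1 of 8.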

How the data were processed

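Gene expression was read on 12 ATH1 arrays. The deposited table holds 1 linear intensity per probe set and array; MAS5 is named in the submitters' processing notes, and its version and scaling were not stated in any label or header used. From these intensities, 2 was added, log2 taken, and the 12 arrays quantile normalized; signals printed are taken back to the linear scale, less 2. The 64 array control probe sets were left out. Probe sets whose mean log2 value exceeded the 40th percentile entered a fit over all 4 groups in limma (version 3.58.1, R version 4.3.3). The fit used lmFit and eBayes with a mean-variance trend. Its two-sided p-values rest on a median of 13.26 total degrees of freedom, 8 of them residual. Benjamini-Hochberg adjustment was over all probe sets tested. Precision is limited by the number of arrays. The steps were tested on simulated data. The annotation named 1 gene for 13513 probe sets, several for 503 and did not list 8730; 13436 of the first matched the TAIR10.1 gene set. Many well-known genes are therefore not named here. Where a gene had several probe sets, the brightest represented it.

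Genes were named by a rule: the 15 largest rises and falls, up to 5 called members of each of 59 lists with at least 3 tested genes, and the 10 brightest called, 181 in all; others named here were called members of the lists or were named after their values were seen. The members and lists were chosen with earlier results of these data known, and several lists were drawn up after the calls were seen. Promoter sequences were not used. The alternatives were no normalization, median centring, no filter, an offset of 16, no trend, the night arrays alone, a replicate block, array weights, raised dim signals and leaving out each array. The labels do not say whether the replicate numbers pair the arrays, and the arrays were treated as unpaired. Deviations of same-numbered night arrays correlated at 0.116, 0.234 and -0.0312, and those of night arrays with different numbers at -0.191 to 0.0714. These values leave the pairing open.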

Additional observations from a re-analysis of the deposited data

Results flagged for a closer look

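The difference between the night and the day response, the first minus the second on the log2 scale, was called for 1728 probe sets. Of 134 called genes named here, 46 had a called difference, and MSRB9, named in addition, had none. Among all 1760 called probe sets, 487 had one, and some genes were named after their values were seen. Positive values mean a stronger rise or a weaker fall at night. The day control arrays correlated with the night arrays less closely than the other groups did, and these differences rest in part on them.

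SKP2A (2.85) and MGL (2.05) were called in both comparisons with opposite signs. EXPA16 (1.73), AT3G12050 (1.17), AT3G11450 (-1.23), UBC28 (-1.44) and RR16 (-1.48) were called at night and not in the day, where their fitted changes lay between -0.47 and 0.35 and had the other sign. Larger fitted changes at night in the same direction were seen for GI (2.15), AT1G23205 (1.00) and UGT76C2 (-1.61). The night control mean of GI and the day control mean of AT1G23205 lay under 21.75, so the sizes of these 2 were not measured. For AT1G23205 the day rise is a lower bound, so whether the night rise was larger is not known. UGT76C2 had a mean of 44.9 in the day controls, against 255 in the night controls.

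Weaker falls at night on the log2 scale were found for genes of the lipid breakdown, SnRK1 and autophagy lists. They were AT5G18630 at 2.82, AT1G02660 at 2.21, SDP1 at 1.87, ATG8E at 1.48, BZIP53 at 1.45, ATG8F at 1.13 and ATG8C at 0.78. Each of these genes had a higher mean in the day controls than in the night controls. AT5G18630 had 1050 against 132, with 51.1 after the day pulse and 46.5 after the night pulse. ATG8F had 4000 against 942, with 715 and 373 after the pulses. The part of these control levels in the differences was not tested. The differences of AKINBETA1, at 0.04, AT3G15450, at -0.44, and MCCA, at 0.21, were not called. Weaker falls also belonged to WES1 at 2.88, RTE1 at 1.45, AT3G24120 at 1.08, bHLH121 at 1.06, AT5G05750 at 1.03 and AT5G08520 at 0.91. Their day control means were likewise above their night control means. AT3G62950, at 4.87, and AT2G20670, at 2.11, had a night pulse mean under 21.75, so their night falls are lower bounds. The size of their difference was not measured, and whether the night fall was the weaker is not known.

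Weaker rises at night were found for AT3G09440 at -1.06, AT1G09310 at -1.07, CYTC-2 at -1.19, AFR at -1.21, AT5G27930 at -1.31, AT5G47060 at -1.47, AT2G44670 at -1.59, AT3G21670 at -1.66 and AT3G48460 at -1.84. Larger differences of this kind belonged to AT1G13930 at -1.88, AT5G45950 at -1.91, XTH32 at -2.02, GTR1 at -2.19, AT1G70000 at -2.31 and AT1G55210 at -2.34. Apart from AT5G27930, these genes had a lower mean in the day controls than in the night controls. XTH32 had 36.4 against 180, with 576 after the day pulse and 674 after the night pulse. Where the day control mean lay under 21.75, the size was not measured, as for HYH at -2.33, AT3G52740 at -2.59, AT1G06000 at -3.08, AT3G44450 at -3.10, COR15B at -3.52 and COR15A at -4.74.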

How the results depend on the processing

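The count of probe sets called after the night pulse was 669 without normalization and 3513 with array weights, against 1760 as reported, and the other settings that kept all night arrays gave 1560 to 2617. Leaving out 1 night array at a time gave 1103 to 1512, the lowest without night control replicate 2. The share higher among called probe sets was 63.7% without normalization and 54.6% with median centring, against 47.1%. The count of called differences from the day pulse was 440 without normalization and 2729 with median centring, against 1728. Leaving out 1 of the 12 arrays gave 1135 to 2660, the lowest without night control replicate 3 and the highest without day control replicate 1. The share of probe sets with no overlap was 27.4% without the filter on dim signals and 43.0% to 50.6% with 1 night array left out, against 37.1%. With the replicate number as a block the counts were 1964 and 2019, and 178 of the 181 genes picked by the rule kept their calls. Without normalization 105 of them kept theirs, with median centring 165, without the filter 166 and with 1 night array left out 140 to 160. No fitted change of these genes turned its sign under any of the 15 alternatives. Of the 1760 called probe sets, 568 were called under all 15. The cause of these shifts was not tested. Signals near the background limit the folds given as at least.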

Other observations

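Further gene groups gave smaller or mixed counts after the night pulse. Of 28 family 1 sugar transferases 10 rose and 4 fell, and the median change was 0.38. All 3 major latex protein-like genes tested rose, with AT4G23680 at 79.2 ± 12.2 on the night pulse arrays and 20.5 ± 6.68 on the night control arrays (SD, n = 3 each), AT3G26450 3.26-fold higher and AT4G23670 1.81-fold higher. AT4G23670 lost its call in 7 of the 15 alternatives. Of 7 SWEET sugar exporters 2 rose, SWEET1 by 0.77 and SWEET4 by 1.40, and neither kept its call under all alternatives. Of 6 histone genes 2 linker-type genes fell, HON4 by 1.03 and HIS1-3 by 1.00 on the log2 scale. Of 7 tubulin genes TUB5 fell, by 1.11. Of 39 genes of vesicle sorting 3 fell, and of 21 genes of translation and ribosome assembly 1 fell.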
